A study of Mus musculus with 77 samples.

Results

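The libraries described here are the 6 H3K27ac libraries of mb1-cre WT B cells, of 77 libraries in the series: 3 made after 24 h with CpG and 3 made at 0 h. They were chosen by their titles, which name the genotype, the time and the mark. The series profiled H3K27ac, H3K27me3 and H2AK119Ub by CUT&RUN, in which a nuclease tethered by an antibody releases the DNA around marked nucleosomes, in B cells with and without Xist, the RNA that silences the inactive X chromosome. All 6 libraries came from splenic B cells, selected for CD23, of female WT mice that carry mb1-cre, a Cre recombinase expressed from the B-lineage gene mb1, so both times share the Cre and neither has a floxed gene named in the labels. The 24 h cells were cultured for 24 h with 1 µM CpG, a DNA ligand of Toll-like receptor 9, and the 0 h cells went into CUT&RUN at once. CpG and time in culture therefore cannot be told apart. The replicates are called biological in the labels, with no word on separate animals, so the p-values speak of the spread among these libraries.

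H3K27 acetylation is placed by the acetyltransferases p300 and CBP on nucleosomes of active promoters and enhancers, and clusters of enhancers at genes that define a cell type carry broad, strong domains of it. CpG binds Toll-like receptor 9 in the endosome, and the signal runs through MyD88 and IRAK kinases to the kinase Tak1, encoded by Map3k7, which releases the transcription factor NF-kB from its inhibitor IkBa. A follicular B cell that is activated this way leaves its resting state, grows and enters the cell cycle.

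The 24 h lists held 9926, 8256 and 8566 peaks in replicates 1 to 3, against 4751, 3174 and 4888 peaks in the 0 h lists. Peaks covered 98.6, 97.6 and 100.4 Mb in the 24 h libraries, against 73.9, 51.6 and 75.7 Mb in the 0 h libraries. The 24 h lists were thus 2.09 times as long on average and covered 1.47 times as much of the genome, with no overlap between the groups (exact two-sided permutation test, p = 0.1, the smallest that 3 against 3 libraries can give). The median peak width was 7.58 ± 0.86 kb at 24 h and 11.4 ± 0.58 kb at 0 h (SD, n = 3 each). Among the strongest 3174 peaks of each list it was 14.7 ± 0.78 kb at 24 h and 13.5 ± 1.26 kb at 0 h, with overlap. A peak touched the body of 8516 ± 530 genes or the 2 kb on either side at 24 h, and of 4881 ± 1057 genes at 0 h. The sources used here give no read depth and show no scale of signal shared between lists, so a longer list and a deeper library cannot be told apart.

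**Figure D1:**
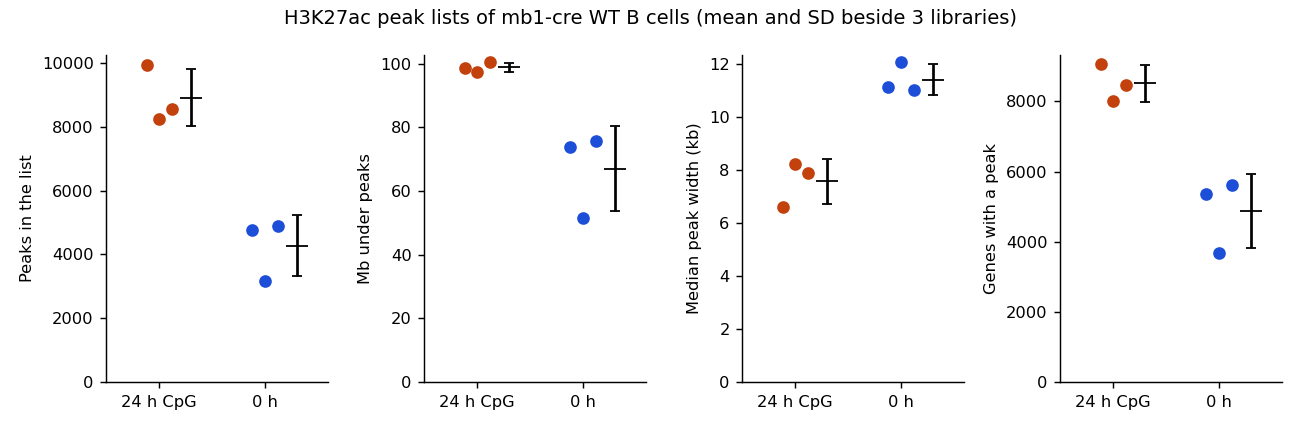
Number of peaks, Mb under peaks, median peak width in kb and number of genes with a peak in each of the 6 H3K27ac libraries of mb1-cre WT B cells (points; 24 h CpG on the left, 0 h on the right; the bar beside each group is the mean with its SD, n = 3). The 24 h lists hold 8256 to 9926 peaks and the 0 h lists 3174 to 4888.

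The lists carried the marks of B cells at both times. All 8 B cell markers had a peak in all 6 libraries, and Cd79a, which encodes a signalling chain of the B cell receptor, ranked 375, 383 and 338 in the 24 h lists and 448, 464 and 397 in the 0 h lists. Fcer2a, which encodes CD23, the protein used to select the cells, ranked 812, 662 and 953 at 24 h and 791, 708 and 587 at 0 h, and its difference did not pass the test (−0.21 ± 0.20 SE, adjusted p = 0.428). By share of summed signal, a measure used below, Fcer2a was lower (−0.68, adjusted p = 0.00343). By highest signal it stood at −1.38 (adjusted p = 0.0645). No library had a peak at 4 of 7 T cell, 5 of 7 myeloid, 5 of 6 NK, 5 of 5 erythroid or 3 of 5 plasma cell markers. Cd3e, Lyz2, Csf1r, Ncr1, Gata1, Sdc1 and Jchain were among those with none. At 24 h each library had a peak at 2 of the T cell markers, 0 to 2 of the myeloid, 1 of the NK and 2 of the plasma cell markers, and at 0 h at 1 to 2, 0, 0 and 1 of them. The NK marker with a 24 h peak was Klrb1c. Of the T cell markers, Lck ranked 1624, 1093 and 4495 at 24 h and 1090, 1753 and 939 at 0 h. Its difference did not pass (−0.55 ± 0.45, adjusted p = 0.367), but did by highest signal (−1.63, adjusted p = 0.0113). Cd3g ranked 9240, 7362 and 7530 at 24 h and had no peak in any 0 h list. The plasma cell marker Mzb1 ranked 923, 1192 and 957 at 24 h, and 985, 889 and 1088 at 0 h. In a wider list of 16 myeloid genes 12 had no peak in any library. Ly6c2, a surface protein of monocytes, had a peak in 2 of 3 libraries at 24 h and 3 of 3 at 0 h. Its rank score, defined below, was 0 in all 3 libraries at 24 h, so the difference (−0.80) is given without a test. Siglech had a peak in 0 of 3 libraries at 24 h and 1 of 3 at 0 h. The part of these cells in the results was not tested. Each library is a bulk of cells, so fewer cells that carry a mark and less of the mark per cell cannot be told apart.

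To set lists of unequal length on one scale, each list was trimmed to its strongest 3174 peaks, the length of the shortest list. A gene's rank score is the log2 of that length plus 1 over the rank of the strongest peak that touches its window, with peaks ranked by total signal within their list, and it is 0 for a gene without a peak among those 3174. A difference of 1 thus stands for a rank number 2 times smaller. The test was limma on the 6 libraries with Benjamini-Hochberg adjustment over the 4161 genes that scored above 0 in at least 3 libraries, at a threshold of 0.05. A score is a place within a list, so a lower score does not by itself mean that a peak lost signal. A gene that scored 0 in all 3 libraries of a time entered the test through the other time alone, and its SE holds no spread at the first. This was so at 217 of the 678 genes called higher and 223 of the 890 called lower, and for those named below the difference is given without a test.

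At equal length, rank scores differed between times in both directions. Ranks in a list of fixed length trade off, so calls in both directions are partly set by the scale. Of the 4161 genes tested, 678 (16.3%) scored higher and 890 (21.4%) lower at 24 h, 37.7% in all, and the median difference over all genes was −0.02. The 2 groups of libraries did not overlap at 1086 genes with a higher score at 24 h (26.1%) and at 1238 with a lower one (29.8%), which is the background for each statement below that the libraries of a gene did not overlap. Neighbouring genes often lie under one peak: the 678 genes fall into 446 groups that share a strongest peak and the 890 genes into 612. Libraries of the same time were more alike than libraries of different times, with a mean base-pair Jaccard index of 0.633 within times and 0.476 between them (difference 0.156, exact permutation p = 0.1, the smallest possible). The split depends on the scaling. Ranked over the deposited lists at full length, 2162 genes were higher and 954 lower of 7505 tested, with a median difference of 0.34; by share of summed signal, 2056 were higher and 1201 lower, with a median of 1.02; by length of gene window under peaks, 440 were higher and 382 lower.

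**Figure D2:**
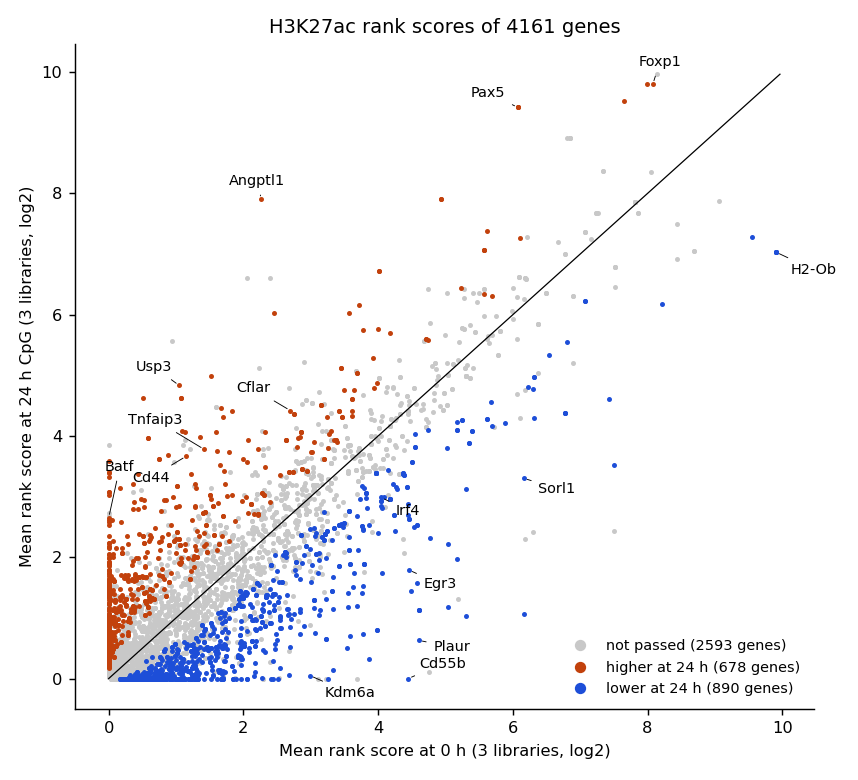
Mean H3K27ac rank score of each of 4161 genes at 24 h with CpG (vertical) and at 0 h (horizontal), both log2 and over 3 libraries; orange genes were higher and blue genes lower at 24 h by limma, grey genes did not pass, and the line marks equal scores. Pax5, Tnfaip3 and Batf lie above the line, and H2-Ob, Sorl1 and Cd55b below it.

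Among the genes of largest gain was Pax5 (chr4:44524748-44710694, mm10), the transcription factor that keeps B cell identity. Its strongest peak ranked 4, 5 and 5 in the 24 h lists, against 51, 36 and 57 in the 0 h lists, and was 189, 157 and 183 kb wide at 24 h, against 75.3, 69.7 and 72.5 kb at 0 h. All 24 h libraries lay above all 0 h libraries (3.34 ± 0.27 SE, limma adjusted p = 0.000842). Usp3, a deubiquitinase that acts on histone H2A, ranked 99, 114 and 122 at 24 h, against 2369, 1309 and 1174 at 0 h (3.79 ± 0.29, adjusted p = 0.000805). Pan3, a subunit of a poly(A) nuclease, ranked 97, 115 and 89 at 24 h, against 1035, 1175 and 1112 at 0 h (3.47 ± 0.15, adjusted p = 0.000455). The groups did not overlap at either gene.

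Fut8, which adds core fucose to glycoproteins, had a peak at ranks 300, 306 and 304 in the 24 h lists, and at 0 h a peak in replicate 3 alone, at rank 4808 (difference 3.39). Cul3, the scaffold of a family of ubiquitin ligases (3.38), Jade2, a subunit of a histone acetyltransferase complex (3.08), Phip (2.88), Ahcyl2 (2.98), Ankrd13d (3.03) and Ankrd33b (2.99) were higher as well. Angptl1 had the largest difference of the coding genes called, 5.63, but it lies inside the gene Ralgps2, whose strongest peak ranked 13, 12 and 15 at 24 h, against 71, 112 and 141 at 0 h (2.97, adjusted p = 0.00134). The calls of Angptl1 and Uts2b (3.40) each ended in 5 of the 6 fits that leave out 1 library. Ranked by the highest signal of a peak in place of its total, the differences at Pan3, Cul3, Jade2 and Phip were 1.02, 0.79, 0.71 and 0.73 and the calls ended (adjusted p = 0.054, 0.104, 0.0608 and 0.0516), while that of Pax5 held (2.43, adjusted p = 0.017).

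Of the coding genes called lower, Cd55b, a copy of the complement regulator Cd55, had the largest difference (−4.45). It had no peak in any 24 h list, against ranks 144, 126 and 170 in the 0 h lists. The 0 h peak, 56.8, 57.4 and 57.8 kb wide, also covered Cd55, which kept peaks at ranks 307, 600 and 439 at 24 h (−1.57 ± 0.28, adjusted p = 0.00828). The sources used here do not say how reads of near-identical copies were placed, so the split between these copies is uncertain. Plaur, the receptor of urokinase, ranked 3752, 856 and 7285 at 24 h, against 141, 115 and 137 at 0 h (−3.97 ± 0.54, adjusted p = 0.00339). Sorl1, a sorting receptor, ranked 420, 244 and 325 at 24 h, against 54, 35 and 46 at 0 h (−2.86 ± 0.27, adjusted p = 0.00117), and Ttll5, a tubulin-modifying enzyme, ranked 908, 474 and 740 at 24 h, against 100, 92 and 97 at 0 h (−2.83 ± 0.26, adjusted p = 0.00108). At each of these genes every 24 h library lay below every 0 h library.

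Nutm1 (−3.25), Sit1 (−2.89), an adaptor that sets the threshold of lymphocyte signalling, and Kdm6a (−2.94), an X-linked H3K27 demethylase, were lower too. Sit1 lies under the same 0 h peak as Cd72. Pigr (−3.04) and Nfkbil1 (−3.03) were lower at 24 h, with 0 h replicate 3 far from the other 0 h libraries (rank 816 against 134 and 113 at Pigr, rank 1124 against 109 and 167 at Nfkbil1). Their calls each ended in 5 of the 6 fits that leave out 1 library (adjusted p up to 0.0902 and 0.121), and by covered length Pigr turned to 0.03.

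The width of the domains moved with these calls. The strongest peak of the 678 higher genes had a median width of 17.8, 18.3 and 19.1 kb in the 24 h libraries, against 13, 12.5 and 13.5 kb in the 0 h libraries. For the 890 lower genes it was 10.1, 10.7 and 10.6 kb at 24 h, against 14.9, 13.5 and 15.3 kb at 0 h, and over all genes tested 13.98, 15.1 and 15.4 kb at 24 h, against 15.3, 13.6 and 15.5 kb at 0 h. Total signal is summed over width, so width is part of the measure and these medians are a description. At 19.8% of the lower genes, against 9.97% of all genes tested, the 0 h peak held a mean number of 24 h peaks that rounds to more than 1. A domain called as a unit at 0 h was listed in pieces at 24 h there. The reverse held at 6.2% of the higher genes and 3.65% of all genes tested. Both counts use the deposited lists at full length, which at 24 h are longer and have a smaller median peak width. The part of list length in these shares was not tested. Ranked by highest signal, which does not sum over width, 532 of the 678 higher genes could be tested, of which 226 were called higher again and 481 kept their sign; of the 890 lower genes 825 could be tested, of which 420 were called lower again and 776 kept their sign. Covered length, the kb of a gene's window under peaks, gave fewer of these calls: of 76 called genes named in the text, 29 kept the call, 43 lost it and 4 changed sign. Those that lost it include Usp3, Plaur, Sorl1, Cxcr4, S1pr1, Foxo1, Kat6a and Crebbp. A window wholly under peaks in every library gives a difference of 0 by covered length, which cannot show a change there. This was so at S1pr1, Irf4, Cd180, Nfkbia, Ier2, Lta, Cd79b, H2-Ob, H2-Ab1 and H2-Aa, so their lost calls do not bear on the rank score.

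The lists of genes named below are pathway and cell state lists. The counts of calls are read against the 16.3% higher and 21.4% lower of all genes tested. Among 12 tested subunits and regulators of NF-kB, 6 were higher and 2 lower at 24 h, with a median difference of 0.66. Inhibitors of the pathway were among the 6 higher genes. The 2 lower genes were Birc3 (−1.09 ± 0.26, adjusted p = 0.0213) and Bcl3 (−0.62 ± 0.175, adjusted p = 0.0385). Nfkbid (−0.56, adjusted p = 0.0588) and Nfkbie (0.06, adjusted p = 0.782) did not pass. Tnfaip3 (chr10:19000910-19015410), which encodes A20, the enzyme that shuts off NF-kB signalling, ranked 227, 226 and 241 at 24 h, against 1293, 1171 and 1107 at 0 h (2.36 ± 0.13, adjusted p = 0.000579). Tnip1, the partner of A20, ranked 366, 415 and 441 at 24 h, against 2150, 2532 and 2141 at 0 h (2.48 ± 0.15, adjusted p = 0.000625). At both genes the 24 h libraries did not overlap the 0 h libraries, and the difference held by highest signal (2.3 and 2.04). By covered length that of Tnip1 held (1.58), while the call of Tnfaip3 ended (0.44, adjusted p = 0.285).

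Nfkb1, the precursor of the p50 subunit, ranked 225, 245 and 248 at 24 h, against 935, 853 and 983 at 0 h (1.95 ± 0.13, adjusted p = 0.000625). Nfkbia, which encodes IkBa, ranked 1208, 1076 and 1175 at 24 h, against 2241, 1756 and 2103 at 0 h (0.81 ± 0.15, adjusted p = 0.00925; 0 by covered length). The groups did not overlap at either gene, nor at Nfkbiz, which encodes the nuclear cofactor IkBz (1.69 ± 0.33, adjusted p = 0.0114; 0.91 and adjusted p = 0.194 by highest signal).

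The RefSeq windows around the starts of 3 of these NF-kB regulators and of Btg2, an antiproliferative gene of the lower set, are printed here. They lie under the strongest peak and hold a match to a motif. Of the motifs marked, the NF-kB consensus alone is that of a factor named in the pathway above. Each runs from 250 bases before to 50 bases after the annotated start, in the sense of the gene, which is the minus strand for all 4 (RefSeq, GRCm38.p6). Capitals mark matches to the NF-kB consensus on either strand in the first 3, and to the CRE motif TGACGTCA in Btg2. The 3 matches in Tnip1 overlap.
Tnfaip3, chr10:19015361-19015660: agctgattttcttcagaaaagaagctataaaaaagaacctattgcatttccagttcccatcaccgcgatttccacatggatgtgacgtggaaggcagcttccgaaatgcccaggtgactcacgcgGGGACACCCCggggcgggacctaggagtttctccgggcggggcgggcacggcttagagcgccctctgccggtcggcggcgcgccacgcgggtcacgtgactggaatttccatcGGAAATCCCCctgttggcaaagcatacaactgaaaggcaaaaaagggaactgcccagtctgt
Tnip1, chr11:54962891-54963190: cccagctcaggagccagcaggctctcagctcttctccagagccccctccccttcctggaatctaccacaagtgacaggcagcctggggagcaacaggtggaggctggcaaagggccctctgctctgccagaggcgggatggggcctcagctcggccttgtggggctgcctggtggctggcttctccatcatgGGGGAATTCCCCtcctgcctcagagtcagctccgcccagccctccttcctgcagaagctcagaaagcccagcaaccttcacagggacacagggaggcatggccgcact
Nfkbia, chr12:55492598-55492897: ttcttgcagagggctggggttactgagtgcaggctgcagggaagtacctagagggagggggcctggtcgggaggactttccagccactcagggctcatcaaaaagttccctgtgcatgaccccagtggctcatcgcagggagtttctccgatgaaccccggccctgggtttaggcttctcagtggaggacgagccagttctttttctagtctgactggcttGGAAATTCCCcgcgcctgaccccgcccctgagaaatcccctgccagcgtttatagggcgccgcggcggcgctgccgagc
Btg2, chr1:134079106-134079405: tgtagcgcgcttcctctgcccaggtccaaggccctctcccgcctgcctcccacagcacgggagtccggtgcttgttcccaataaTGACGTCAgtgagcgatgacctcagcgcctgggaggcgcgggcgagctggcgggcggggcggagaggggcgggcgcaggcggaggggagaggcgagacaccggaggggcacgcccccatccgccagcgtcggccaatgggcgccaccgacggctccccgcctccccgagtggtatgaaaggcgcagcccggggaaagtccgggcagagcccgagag

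The highest point of the strongest 24 h peak lay 24.5 kb from the Tnfaip3 window, 26.7 kb from that of Tnip1 and 4.3 kb from that of Nfkbia, and the highest point of the 0 h peak lay 15.9 kb from the Btg2 window. Tnfaip3 has a further start window, which holds no match. A match is letters alone and common: the NF-kB consensus stood in the start windows of 12.6% of the higher genes (67 of 533 with a window), 10.9% of the lower genes (74 of 678), 13.4% of all genes tested and 9.62% of all 26794 genes with a window. The shares for CRE were 2.25%, 2.36%, 2.77% and 2.05%, for AP-1 (TGANTCA) 7.32%, 6.78%, 7.34% and 9.03%, and for the E-box (CACGTG) 9.57%, 9.14%, 11.1% and 8.16%. Both strands were searched and matches of different motifs may overlap. Start windows of higher genes held a median of 21.5 CpG dinucleotides, those of lower genes 12.2, and those of all genes tested 18.5. The start window lay under the strongest 24 h peak in all 3 libraries at 69.4% of the higher genes and 61.4% of all genes tested, and under the strongest 0 h peak at 60.0% of the lower genes.

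Of 22 tested genes of B cell activation and costimulation, 9 were higher and 1 lower at 24 h, with a median difference of 0.33. Cflar, an inhibitor of caspase-8 that is a target of NF-kB, ranked 149, 148 and 148 at 24 h, against 434, 562 and 482 at 0 h (1.72 ± 0.15, adjusted p = 0.000908). Bcl2l1, which encodes the survival protein Bcl-xL, ranked 764, 1281 and 1629 at 24 h and had no peak in any 0 h list (difference 1.44). Cd274, the ligand of PD-1, ranked 288, 291 and 321 at 24 h, against 509, 505 and 475 at 0 h (0.73 ± 0.12, adjusted p = 0.00712). In these genes each 24 h library lay above each 0 h library.

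Cd44, an adhesion receptor, ranked 427, 190 and 193 at 24 h, against 1439, 1317 and 1544 at 0 h (2.52 ± 0.34, adjusted p = 0.00339), but by highest signal it turned to −0.55 (adjusted p = 0.299). Cd83, a surface protein of activated B cells, ranked 60, 66 and 51 at 24 h, against 240, 234 and 138 at 0 h (1.75 ± 0.27, adjusted p = 0.00481), and by highest signal turned to −0.39 (adjusted p = 0.602). By the same measure the difference at Cflar was 1.53 (adjusted p = 0.0837) and that at Cd274 was 0.09 (adjusted p = 0.907). By covered length the calls of Cflar, Cd44 and Cd83 ended (0.93, 0.98 and 0.0026). The early activation marker Cd69 did not pass (0.49 ± 0.39, adjusted p = 0.365; 0.92 and adjusted p = 0.0319 without 0 h replicate 1). Cd86, another costimulatory gene, had a peak in 3 of 3 libraries at 24 h and 2 of 3 at 0 h, and was not among the genes tested.

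Transcription factors of the response went both ways. Batf (chr12:85686720-85709087), an AP-1 family factor of activated lymphocytes, ranked 610, 444 and 478 at 24 h and had no peak in any 0 h list (difference 2.65). It was the 1 gene called higher among 11 tested AP-1, Batf and IRF factors, of which 4 were lower. Irf4, a partner of Batf that drives plasma cell formation, was lower: it ranked 376, 416 and 409 at 24 h, against 209, 187 and 181 at 0 h (−1.06 ± 0.13, adjusted p = 0.00269). The widths of its strongest peak were 24.2, 26.7 and 23.9 kb at 24 h and 26.2, 26.3 and 24.7 kb at 0 h. By highest signal the differences were 2.55 at Batf and −3.19 at Irf4, and by covered length 4.60 at Batf and 0 at Irf4, whose call ended. The Irf4 window lay wholly under peaks in every library, so covered length cannot show a change there. Over start windows Batf stood at 1.51 and its call ended.

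The immediate early genes, which are transcribed within minutes of a stimulus, had the largest share of lower calls among the lists with at least 10 tested genes, 9 of 12, with none higher and a median difference of −0.83. Egr1, a zinc finger factor, ranked 2364, 2062 and 2216 at 24 h, against 1048, 725 and 705 at 0 h (−1.44 ± 0.20, adjusted p = 0.00344), with −3.88 by highest signal and 0.15 by covered length (adjusted p = 0.526). Ier2 ranked 2007, 1839 and 1783 at 24 h, against 988, 865 and 942 at 0 h (−1.01 ± 0.13, adjusted p = 0.0032). Nr4a3, an orphan nuclear receptor induced by antigen receptor signals, ranked 3485, 3575 and 2709 at 24 h, against 1836, 1648 and 1551 at 0 h (−0.85 ± 0.11, adjusted p = 0.00334). Every 24 h library lay below every 0 h library at these genes.

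Klf6, another zinc finger factor, was lower as well (−0.93 ± 0.17, adjusted p = 0.00964), and by highest signal the differences at Klf6 and Ier2 were both −0.56 and the calls ended (adjusted p = 0.254 and 0.233). By covered length the calls of Ier2 and Nr4a3 ended. Egr3 ranked 6699, 477 and 511 at 24 h, against 194, 117 and 133 at 0 h (−2.67 ± 0.77, adjusted p = 0.0408). Its value rested on 24 h replicate 1, without which it was −1.77 (adjusted p = 0.0111), and the call ended without any 1 of the 0 h replicates or without 24 h replicate 3 (adjusted p up to 0.119).

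**Figure D3:**
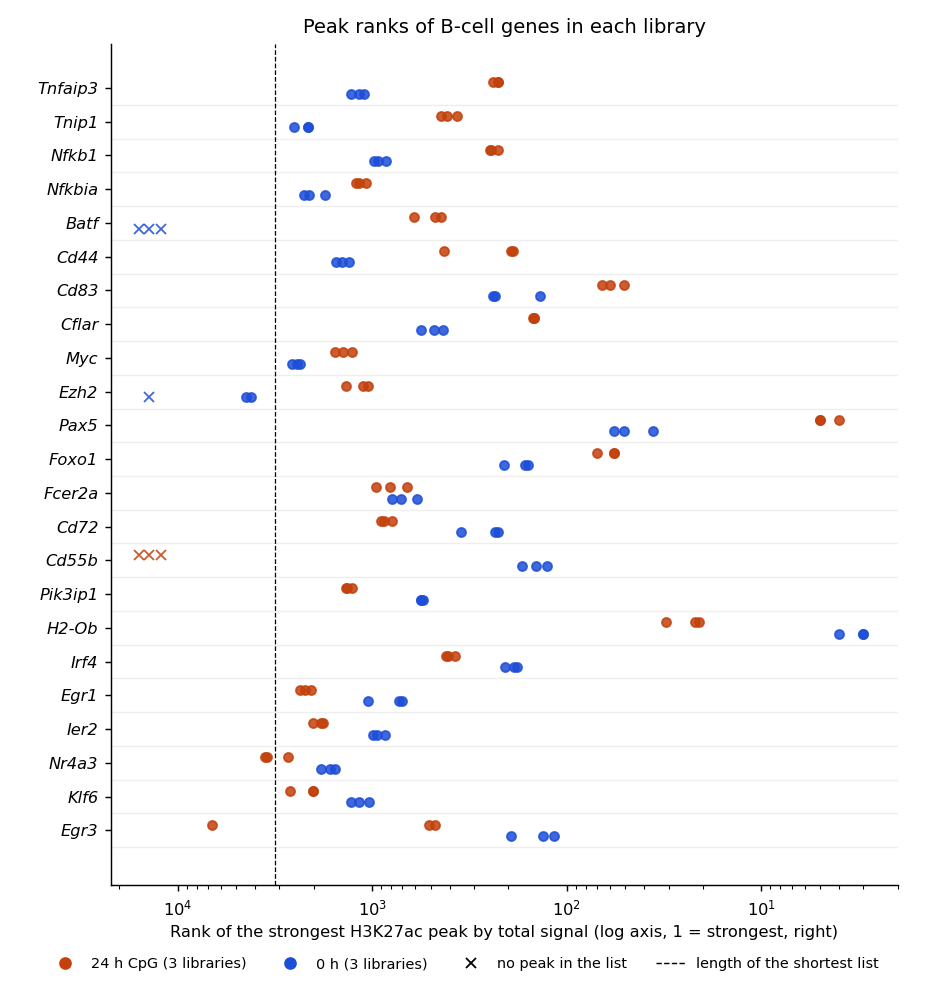
Rank of the strongest H3K27ac peak by total signal at selected B cell genes in each library of mb1-cre WT cells (log axis, rank 1 at the right; orange 24 h CpG above blue 0 h, 3 libraries each; crosses, no peak in the list; dashed line, 3174). The 24 h libraries rank Tnfaip3, Batf and Pax5 ahead of the 0 h libraries, and Cd72, Irf4 and the Egr genes behind them.

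A list of Toll-like receptors and their signalling proteins gave 0 higher and 5 lower of 15 tested, with a median difference of −0.09. The 5 were Map3k7, Irak2, Slc15a4, Cd180 and Tlr6, of which Cd180 and Tlr6 act outside the Toll-like receptor 9 pathway. Tlr9 itself ranked 256, 759 and 289 at 24 h, against 696, 667 and 709 at 0 h, and did not pass (0.85 ± 0.43, adjusted p = 0.167). Its 24 h replicate 2 lay apart, and without it the difference was 1.34 (adjusted p = 0.00341). Map3k7 stood at −0.88 ± 0.08 (adjusted p = 0.00114), and its call ended by covered length (−1.10, adjusted p = 0.647). Cd180, a receptor related to the Toll-like receptors, ranked 157, 171 and 180 at 24 h, against 83, 110 and 76 at 0 h (−0.93 ± 0.19, adjusted p = 0.0131). Tlr6 was lower by rank score (−0.69, adjusted p = 0.0108) and 0.06 by covered length, and by highest signal the differences at Cd180 and Tlr6 were −1.58 and −1.26, with adjusted p = 0.068 and 0.109. By covered length Cd180 stood at 0, as its window lay wholly under peaks in every library.

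Of 30 tested genes of naive and follicular B cells, 11 were lower and 2 higher at 24 h, with a median difference of −0.34. S1pr1, the receptor that guides lymphocytes out of lymphoid tissue, ranked 162, 154 and 203 at 24 h, against 62, 43 and 58 at 0 h (−1.68 ± 0.21, adjusted p = 0.00285). Cxcr4, a chemokine receptor, ranked 1461, 776 and 1212 at 24 h, against 310, 239 and 227 at 0 h (−2.12 ± 0.28, adjusted p = 0.00305). Pik3ip1, an inhibitor of PI3 kinase, ranked 1368, 1351 and 1265 at 24 h, against 564, 560 and 550 at 0 h (−1.25 ± 0.12, adjusted p = 0.0012). The groups did not overlap at these genes.

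Cd72, an inhibitory co-receptor, ranked 793, 868 and 904 at 24 h, against 351, 233 and 226 at 0 h (−1.69 ± 0.21, adjusted p = 0.0026), and stood at 0.14 by covered length (adjusted p = 0.288). Btg2 ranked 819, 4564 and 4604 at 24 h, against 418, 289 and 327 at 0 h (−2.57 ± 0.57, adjusted p = 0.0176). Its call ended in 4 of the 6 fits that leave out 1 library, with adjusted p up to 0.0621. Ranked by highest signal, Pik3ip1 stood at −1.41 (adjusted p = 0.0524) and Cd72 at −1.11 (adjusted p = 0.113). The 2 genes higher at 24 h were Foxo1, which keeps lymphocytes quiescent (1.53 ± 0.19, adjusted p = 0.00244), and Foxp1, a factor of mature B cells (1.72 ± 0.36, adjusted p = 0.0148), whose call ended without 0 h replicate 1 or 3 (adjusted p up to 0.0599) and by highest signal (0.56, adjusted p = 0.547). By covered length the calls of Foxo1 and Foxp1 ended (0.085 and 0.15). Klf2, a factor of resting lymphocytes, did not pass (−0.31 ± 0.19, adjusted p = 0.236; −0.49 and adjusted p = 0.0495 without 24 h replicate 2).

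The B cell identity factors and receptor genes were mostly uncalled, 17 of 22, with 2 higher, 3 lower and a median difference of 0.01. Beside Pax5, Pou2f2, the octamer factor of B cells, was higher: it ranked 276, 311 and 345 at 24 h, against 534, 506 and 606 at 0 h (0.82 ± 0.15, adjusted p = 0.00937; 1.01 and adjusted p = 0.0557 by highest signal). Cd79b, a signalling chain of the B cell receptor, was lower (−0.58 ± 0.17, adjusted p = 0.0425), but the call ended in each of the 6 fits that leave out 1 library and by highest signal the value was 1.14 (adjusted p = 0.123).

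MHC class II genes, which present antigen to T cells, gave 6 lower and 0 higher of 11 tested, with a median difference of −2.01. H2-Ob, H2-Ab1, H2-Aa and H2-Eb1 lie under a single domain and count as 1 measurement. It ranked 21, 22 and 31 at 24 h, against 3, 4 and 3 at 0 h, so it was lower (−2.88 ± 0.29, adjusted p = 0.00134) and still among the 31 strongest peaks in every library. Its width was 86.0, 86.8 and 85.9 kb at 24 h and 126, 86.8 and 124 kb at 0 h. H2-DMa, which loads peptides, ranked 1514, 1349 and 1515 at 24 h, against 304, 367 and 426 at 0 h (−2.01 ± 0.17, adjusted p = 0.000908). By highest signal the domain stood at −2.59, and by covered length its call ended, with 0 at H2-Ob, H2-Ab1 and H2-Aa and −0.0046 at H2-Eb1. The windows that stood at 0 lay wholly under peaks in every library, so covered length cannot show a change there. By highest signal the call of H2-DMa ended as well (−0.54, adjusted p = 0.349), and over start windows H2-DMa stood at 0.23 (adjusted p = 0.806). H2-Oa was lower as well (−1.32 ± 0.25, adjusted p = 0.0104), and its strongest 0 h peak was also that of the neighbouring gene Brd2.

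**Figure D4:**
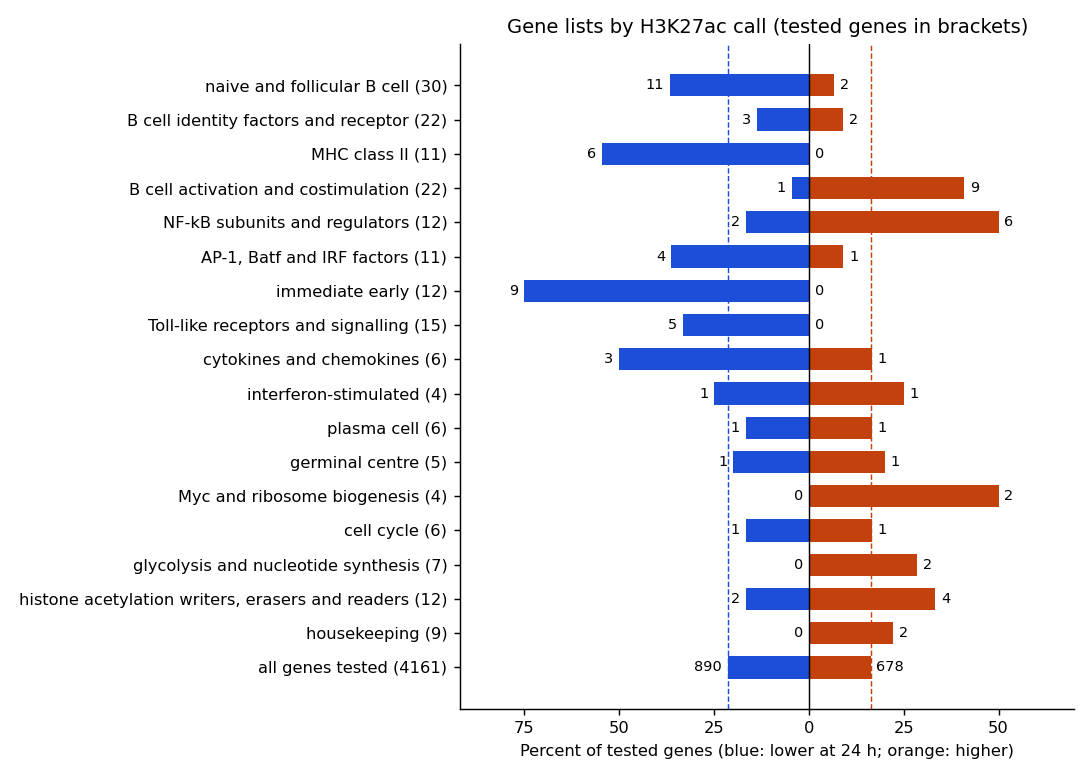
Share of the tested genes of each list that were called higher (orange, to the right) or lower (blue, to the left) at 24 h with CpG against 0 h in mb1-cre WT cells, with the number of genes at each bar and the number tested in brackets; dashed lines mark the shares over all 4161 genes. Regulators of NF-kB and activation genes lean to higher calls, and immediate early, MHC class II and naive B cell genes to lower calls.

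Genes of growth and division were mostly outside the top 3174 peaks and showed in the deposited lists. Of 27 Myc and ribosome biogenesis genes, 18 had a peak in all 3 libraries at 24 h and 3 at 0 h, and 7 of them, such as Nop56 and Nop58, had one in 3 of 3 libraries at 24 h and 0 of 3 at 0 h. The same counts were 17 and 6 of 26 for the cell cycle, with 8 gained, among them Cdk4 and Mcm5, and 15 and 4 of 26 for glycolysis and nucleotide synthesis, with 5 gained, among them Ldha and Pkm. Of 18 housekeeping genes, 16 had a peak in all 3 libraries at 24 h and 6 at 0 h, and 6 were gained. Over all 34328 genes, 6929 had a peak in all 3 libraries at 24 h and 3547 at 0 h. Of the 10403 genes with a peak in any library, 1810 were gained, in 3 of 3 against 0 of 3 libraries (17.4%). The reverse, a loss, held at 37 (0.356%). The lists are 2.09 times as long at 24 h. Without 0 h replicate 2, 109 were lost, and without 24 h replicate 2, 56. In lists of equal length 320 (5.71%) were gained and 319 (5.69%) lost of 5606.

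Few of these genes could be tested by rank score. Myc ranked 1270, 1406 and 1547 at 24 h, against 2441, 2345 and 2599 at 0 h (0.81 ± 0.13, adjusted p = 0.0051; 0.02 by highest signal, adjusted p = 0.932). Pfkp, a phosphofructokinase of glycolysis, ranked 1167, 807 and 1197 at 24 h, against no rank within 3174 at 0 h (difference 1.61). Ezh2, the H3K27 methyltransferase, ranked 1371, 1048 and 1122 at 24 h, and 4177 and 4449 with no peak in replicate 2 at 0 h (difference 1.44). The groups did not overlap at these 3 genes. Ccne1, a cyclin of S phase entry, was lower (−0.84 ± 0.12, adjusted p = 0.0038), with a call that ended over gene bodies alone (−0.57, adjusted p = 0.145) and by covered length (−0.64, adjusted p = 0.48), and the housekeeping gene Ppia was higher (0.72 ± 0.09, adjusted p = 0.003).

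Ccnd3, a cyclin of early G1 phase (1.20), and the glycolytic gene Aldoa (1.43) were higher, with calls that each ended in 2 of the 6 fits that leave out 1 library (adjusted p up to 0.0662 and 0.0812). Among cytokines, Il6 had a peak at ranks 1931, 2381 and 2490 at 24 h and no peak in any 0 h list (difference 0.49). The domain over Lta was lower (−1.22 ± 0.37, adjusted p = 0.0459), and its call ended in 5 of those fits (adjusted p up to 0.121) and by highest signal (−0.59, adjusted p = 0.331). Prdm1, the factor of plasma cell formation, ranked 4737, 5019 and 3733 in the 24 h lists and had no peak in any 0 h list, and was not among the genes tested.

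Of 12 tested genes of histone acetylation, 4 were higher and 2 lower, with a median difference of 0.42. Kat6a, an acetyltransferase, ranked 494, 412 and 434 at 24 h, and 2757 and 1212 with no peak in replicate 2 at 0 h (2.3 ± 0.38, adjusted p = 0.00665). Crebbp and Ep300, which encode CBP and p300, were higher by 1.32 ± 0.21 (adjusted p = 0.00519) and 0.75 ± 0.14 (adjusted p = 0.00916). Hdac1, a deacetylase, scored 0 in all 24 h libraries (difference −0.69), and Brd2, a reader of acetylated histones, was lower (−1.25 ± 0.25, adjusted p = 0.0117). The strongest 0 h peak of Brd2 was also that of the class II gene H2-Oa, so their calls are not separate measurements. By highest signal Ep300 stood at 1.47 (adjusted p = 0.124) and Brd2 at −0.05 (adjusted p = 0.95), and over start windows the difference at Brd2 was 0.23.

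Intergenic regions leaned to lower ranks. Of 447 tested intergenic regions, which are merged from peaks that touch no gene body or its 2 kb flanks and lie a median of 18.1 kb from the nearest coding gene, 72 (16.1%) were higher and 205 (45.9%) lower at 24 h, 62% in all, with a median difference of −0.50. The groups did not overlap at 89 regions in the higher direction (19.9%) and at 240 in the lower (53.7%). A score of 0 in all 3 libraries of the other time stood at 36 of the 72 higher regions (50.0%) and 88 of the 205 lower ones (42.9%). Those regions entered the test through a single time, with no spread at the other. In lists of equal length 8.12% ± 0.10 of the peaks were intergenic at 24 h and 9.89% ± 0.41 at 0 h (SD, n = 3 each), without overlap (exact permutation p = 0.1, the smallest possible). In the deposited lists it was 10.0% and 10.3%, with overlap (p = 0.4, exact). Over the deposited lists at full length 253 regions were higher and 230 lower, by share of summed signal 253 and 241, and by highest signal 105 and 187, so the lean to lower calls did not hold under the first 2 scalings, where the median was −0.08 and 0.51. Presence gave 231 gained (18.3%) and 16 lost (1.27%) of 1263 regions in the deposited lists, and 47 (7.45%) and 105 (16.6%) of 631 in lists of equal length; without 0 h replicate 2, 56 were lost in the deposited lists.

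A region can belong to a domain that reaches a gene in another library. At 145 of the 447 regions, and 54 of the 205 lower ones, the strongest 0 h peak also touched a gene window in at least 1 library. Of the 279 tested regions whose strongest peak touched no gene window in any library, 19.7% were higher and 53.4% lower. Of the regions called higher, the one with the largest difference lies 11.3 kb from Swap70, an adaptor of B cells (chr7:110158855-110210396). It ranked 126, 121 and 145 at 24 h, against 1528, 1451 and 1693 at 0 h (3.58 ± 0.24, adjusted p = 0.000135). A region 19.2 kb from Nfkbiz (chr16:55772728-55792144) ranked 561, 617 and 584 at 24 h and had no peak in any 0 h list (difference 2.44). A region 30.6 kb from Fchsd2 (chr7:101047104-101077907) ranked 508, 532 and 456 at 24 h, against 2271, 2693 and 2500 at 0 h (2.32 ± 0.14, adjusted p = 0.000115). Each of these lay apart between times and touched no gene in any library.

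A region 91.2 kb from Dnajb6 (chr5:29877716-29903949) was higher by 2.78 ± 0.16 (adjusted p = 9.92e-05). A region 17 kb from Smarce1 (chr11:99178173-99192090) was higher by 3.14 ± 1.03 (adjusted p = 0.0417), with a call that ended in 5 of the 6 fits that leave out 1 library (adjusted p up to 0.109). The 5 regions with the largest drops, near Dnah17 (−8.89), Bmp2k (−5.96 and −5.11), Mef2c (−4.54) and Tex35 (−4.51), each had a strongest 0 h peak that also reached a gene in all 3 libraries. The call near Tex35 ended without 0 h replicate 2 (adjusted p = 0.0527) and by highest signal (adjusted p = 0.158). Among lower regions that touched no gene in any library, named after their values were seen, a region 581.5 kb from Mef2c (chr13:82888348-82922502) ranked 6632 in 24 h replicate 1 and was unlisted in the other 24 h libraries, against 616, 533 and 621 at 0 h (difference −2.43). A region 59.4 kb from Dph5 (chr3:115795834-115828682) ranked 2827, 1898 and 2879 at 24 h, against 568, 526 and 488 at 0 h (−2.24 ± 0.21, adjusted p = 0.000398).

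On the X chromosome 22 of 53 tested genes were lower (41.5%) and 1 higher (1.89%), with a median difference of −0.42, against 21.1% lower and 16.5% higher of the autosomal genes, with a median of −0.01; this contrast was not tested. Kdm6a, which escapes X inactivation, ranked 2869, 3171 and 3478 at 24 h, against 544, 411 and 286 at 0 h (−2.94 ± 0.26, adjusted p = 0.000923). Msn, which encodes the membrane linker moesin, ranked 543, 590 and 520 at 24 h, against 211, 251 and 195 at 0 h (−1.34 ± 0.15, adjusted p = 0.00196; −0.79 and adjusted p = 0.0918 by highest signal). The gene called higher was Renbp (difference 1.23), with ranks 1091, 1851 and 1233 at 24 h and no peak in any 0 h list. In mb1-cre Xist fl/fl cells the X genes tested in WT had a median difference of −0.30.

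The same measure was read in libraries that had no part in the calls. The mb1-cre Xist fl/fl cells, in which Cre removes Xist in the B lineage, gave 3 H3K27ac libraries at each time under the same protocol. Of the 678 genes called higher in WT, 664 (97.9%) were higher at 24 h in Xist fl/fl cells, against 50.9% of all genes tested, with a median of 0.94 in Xist fl/fl and 0.98 in WT. Of the 890 called lower, 857 (96.3%) were lower, against 47.9% of all, with a median of −0.79 in Xist fl/fl and −0.86 in WT. All 72 higher regions were positive and 203 of the 205 lower regions negative in Xist fl/fl cells, against 150 positive and 294 negative of all 447 regions tested. The Xist fl/fl libraries by themselves gave 882 genes higher (18.6%) and 893 lower (18.8%) of 4750 tested.

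Tnfaip3 differed by 2.39 in Xist fl/fl cells and 2.36 in WT cells, Pax5 by 3.05 and 3.34, Batf by 2.88 and 2.65, Irf4 by −1.16 and −1.06, and Egr1 by −1.33 and −1.44. Cd55b, at −1.44 in Xist fl/fl and −4.45 in WT cells, and Btg2, at −0.41 and −2.57, were further apart, but neither difference passed the test of time by genotype. That limma test passed 20 of 4750 genes (0.421%) at an adjusted p under 0.05, and 319 at an unadjusted p under 0.05. Some of the 20 scored above 0 in the libraries of a single group alone. WT cells of the TAT-Cre system, whose 24 h cells also received that enzyme before CpG, had short lists, and scores were set on 1329 peaks. There 393 of the 678 genes (58.0%) were higher, 7 lower and 278 had a difference of 0. Of the 890 genes 531 (59.7%) were lower, 44 higher and 315 had a difference of 0. Among all 4161 genes tested, 31.5% were higher and 26.8% lower there, and 1733 had a difference of 0. Of the class II domain, H2-Ob and H2-Ab1 stood at 1.93 there and H2-Aa and H2-Eb1 at −0.60.

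**Figure D5:**
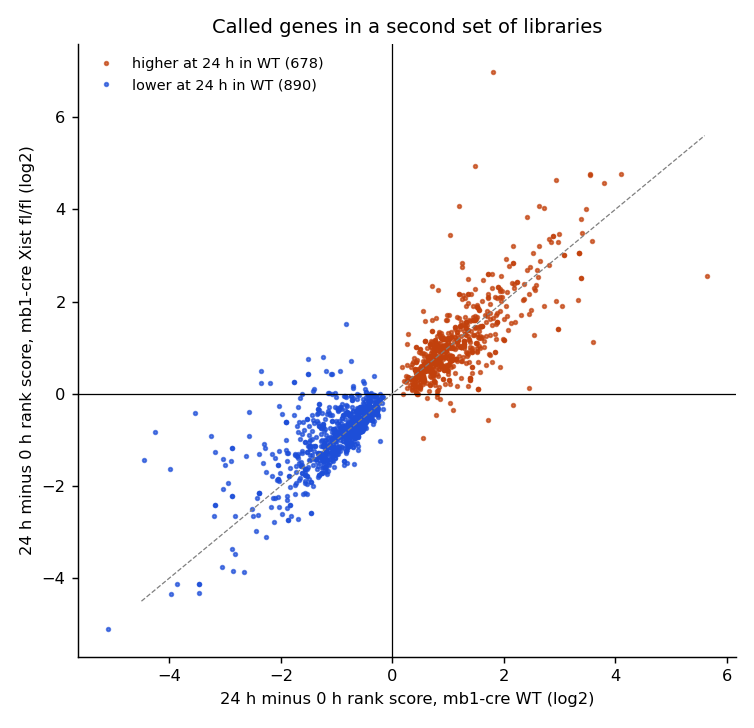
Difference in H3K27ac rank score, 24 h minus 0 h (log2), in mb1-cre Xist fl/fl cells (vertical) against mb1-cre WT cells (horizontal) for the 678 genes called higher (orange) and the 890 called lower (blue) in WT; the dashed line marks equal differences. Of these genes 664 and 857 have the same sign in both.

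The repressive marks of the same cells were read at the called genes. At 24 h an H2AK119Ub peak lay in every one of 3 libraries at 39.4% of the genes higher in H3K27ac, 54.5% of those lower and 44.8% of all genes tested. At 0 h these shares were 6.34%, 6.07% and 5.07%. H3K27me3 peaks lay in every one of 4 libraries at 5.16%, 9.78% and 6.15% at 24 h, and at 3.39%, 4.04% and 2.91% at 0 h. Lists of these marks also differ in length between times, so the shares are compared within a time, and no test was made.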

How the data were processed

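H3K27ac CUT&RUN peaks of 6 mb1-cre WT libraries were compared, 24 h with 0 h. Per the submitters' processing notes, Trimmomatic 0.32, Bowtie2 2.3.4.1, Picard and deepTools 3.5.1 were used and the build was mm10. Per the labels, 3 µg of antibody and a yeast spike-in were used. The deposited lists, 1 per library, give each peak's position, total signal, highest signal and its place. The values are deposited as signal, that is, summed coverage, and SEACR with the settings norm and relaxed is named in the file names. The sources used here do not give the SEACR version, its control, read depth or whether the spike-in set the scale, so no counting interval can be given.

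Peaks on the 19 autosomes and X were matched by at least 1 bp to the windows of 34328 genes of the RefSeq table for GRCm38.p6 (21631 protein-coding, 12697 long non-coding), the gene body with 2 kb on either side. Peaks that touch no window were merged over the 6 lists into 1263 intergenic regions. Each gene or region got the rank score of its strongest peak in lists trimmed to 3174 peaks. Scores above 0 in at least 3 libraries were tested with limma 3.58.1 in R 4.3.3 (trend, Benjamini-Hochberg, threshold 0.05), and the script was tested on simulated data, in which a shift of 1 was seldom recovered when all genes had the mean spread, and more often, though in a minority, when each had its own. The SE is that of limma. Single values of a list were tested by an exact permutation test (two-sided) over libraries. The time by genotype test took the 12 mb1-cre libraries, trimmed to 3080 peaks. Tables and figures were made with Python 3.11.15, numpy 2.4.6, pandas 2.3.3, scipy 1.17.1 and matplotlib 3.10.9.

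The genes named are the 12 coding genes of largest difference in each direction that passed without overlap of the groups, up to 4 members of each gene list with the smallest unadjusted p, and 10 set genes (Myc, Irf4, Cd69, Cd86, Nfkbia, Klf2, Fcer2a, Cr2, Pax5 and Tlr9); regions are the 5 of largest difference in each direction. Cd55, Ralgps2, Cxcr4, S1pr1, Foxp1, Nfkbiz, Bcl2l1, Ep300, Brd2, H2-Oa, Msn, Renbp, Prdm1 and the members gained in the deposited lists were named after their values were seen. So were Cd3g, Mzb1, Bcl3, Birc3, Nfkbid, Nfkbie, Cd22 and Zfp36l2. Cr2 did not pass (−0.27 ± 0.52 SE, adjusted p = 0.708). Some genes that the rule takes are not reported here. The members, lists and tests were chosen with earlier results of these data known. Alternatives were another trim length, no trim, ranks by highest signal, covered length, share of summed signal, start windows, gene bodies alone, 500 bp of overlap, no filter, the 50% of each list highest in peak signal, a replicate block and leaving out each library.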

Additional observations from a re-analysis of the deposited data

Results flagged for a closer look

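Genes whose 24 h minus 0 h difference in H3K27ac rank score was not the same in the 2 genotypes are listed here, from the limma test of time by genotype over the 12 mb1-cre libraries (4750 genes, Benjamini-Hochberg adjusted p under 0.05). Scores here use the shortest of the 12 lists and so differ a little from those above. Values marked as a gap are the WT difference minus the Xist fl/fl difference. The test passed 20 genes, 14 with a negative and 6 with a positive gap, which lie in fewer loci because some share a peak. With the replicate number as a block it passed 5, and on the deposited lists at full length 23.

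Ffar3, a receptor of short-chain fatty acids, differed by 4.02 in Xist fl/fl cells and −0.02 in WT cells (gap −4.04, adjusted p = 1.67e-05). It scored 4.11, 4.08 and 3.87 at 24 h and 0 in the 3 libraries at 0 h in Xist fl/fl cells, and 4.01, 4.31 and 4.03 at 24 h and 4.08, 4.38 and 3.95 at 0 h in WT cells. The libraries of the 2 genotypes overlapped at 24 h and did not overlap at 0 h. The Xist fl/fl 0 h libraries give no spread at Ffar3. The WT difference of Ffar3 (−0.01809) is also that of Cd22, and the WT difference of Thada (−0.030532) is also that of Zfp36l2. A shared strongest peak gives equal values, so these gaps are not shown to belong to Ffar3 or Thada alone. Gm38865, a non-coding gene inside the Foxp1 domain, had the widest gap, −5.17, with 6.98 in Xist fl/fl and 1.81 in WT cells. Brd2, a reader of acetylated histones, differed by 0.79 in Xist fl/fl cells and −1.25 in WT cells (gap −2.04, adjusted p = 0.0216). Ap1m1, an adaptor of vesicle sorting, differed by −0.57 in Xist fl/fl cells and 1.71 in WT cells (gap 2.28, adjusted p = 0.00014).

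Gm30427, which lies in the Msn domain and is the 1 gene of the X chromosome, differed by −0.43 in Xist fl/fl and −3.53 in WT cells (gap −3.11). Gm41590, in the Ccnd3 gene, differed by 4.07 in Xist fl/fl and 1.20 in WT cells (gap −2.87). The gap was −2.32 at LOC115486417, −1.48 at Pcif1, −1.03 at Gm34407, −0.63 at Setdb1, an H3K9 methyltransferase, −1.28 at Epc2 and −1.34 at Thada. It was −1.29 at Plekho1, Vps45 and Gm9054, which share a peak. It was 0.75 at Gm39061, 0.42 at Adora2a, 0.85 at Pear1, and 0.39 at 2310039H08Rik and Rpl7l1, which share a peak. Gm39061, Adora2a, 2310039H08Rik and Rpl7l1 scored above 0 in the WT 24 h libraries alone. Gm34407 did so in the WT 0 h libraries alone, and LOC115486417 and Setdb1 in the Xist fl/fl 24 h libraries alone. These genes entered the test through that group, with no spread in the other groups, so their gaps are a description.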

How the results depend on the processing

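Of 86 named genes and regions called, 72 kept their call in each fit that leaves out 1 library and 14 lost it in at least 1. Ranked by highest signal, 53 of the 80 that could be tested kept call and direction, 24 lost the call and 3 changed sign. Cd79b, Cd44 and Cd83 then stood at 1.14, −0.55 and −0.39. By covered length Pigr stood at 0.030, Cd72 at 0.14, Egr1 at 0.15, Tlr6 at 0.057 and the uncalled Fcer2a at 0.078, and over start windows H2-DMa and Brd2 both stood at 0.23. By covered length 29 of 76 named genes called kept call and direction, 43 lost the call and 4 changed sign; over start windows 26 of 48 kept it, 20 lost it and 2 changed sign; by share of signal 68 of 86 kept it and 18 lost it. The cause was not tested. Where a window lies wholly under peaks in every library, covered length cannot show a change, and such genes are among those that lost the call. Lists of 1500 peaks, covered length, start windows and the reset length without the shortest list were chosen after seeing the data.

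Genes called, higher and lower, were 862, 368 and 494 with lists of 1500 peaks, 822, 440 and 382 by covered length, 535, 275 and 260 over start windows, and 863, 361 and 502 in the upper 50%. The deposited lists called 3116, 2162 of them higher, and share of signal 3257, 2056 higher. Without the shortest list and at the new length 579 were lower. Leaving out 1 library gave 1185 to 1447 called, 483 to 697 higher and 677 to 750 lower. Intergenic regions higher and lower were 32 and 87 with 1500 peaks and 33 and 100 in the upper 50%. Deposited lists gave 253 higher and 230 lower, and share of signal 253 higher and 241 lower. Leaving out 1 library gave 59 to 76 higher and 183 to 199 lower.

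Genes gained by presence were 320 and lost 319 in trimmed lists, against 1821 to 2568 and 43 to 109 without 1 library. Regions gained were 47 and lost 105 in trimmed lists, 133 and 25 in the upper 50%, and 232 to 298 and 16 to 56 without 1 library. Leaving out 1 library moved the log2 ratio of list lengths between 0.88 and 1.19, of Mb between 0.40 and 0.68, of widths between −0.66 and −0.50, and the Jaccard contrast between 0.14 and 0.17.

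The labels do not say whether the replicate numbers pair the libraries. Deviations of same-numbered libraries correlated at −0.04, 0.02 and 0.07, and those of the other pairs at −0.10 to 0.08. With so few libraries these values cannot show whether same-numbered libraries share an animal. With a replicate block 507 genes were higher and 638 lower, and 65 and 194 regions, and the test of time by genotype called 5 genes against 20. The block ended the calls of Nfkbil1, Cd79b, Lta, Aldoa and the intergenic region 17 kb from Smarce1 and no other call of a named gene or region.

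Depth is unknown, so a gene with no peak in a list is not shown to lack the mark. Smaller counts with 1500 peaks or the upper 50% go with fewer genes tested. Whether CpG or 24 h of culture goes with a difference cannot be told apart.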

Other observations

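Some of the strongest H3K27ac domains kept a high rank in each of the 6 libraries. Fchsd2 ranked 12, 7 and 11 in the 24 h libraries and 11, 13 and 12 in the 0 h libraries. Ikzf1, which encodes the lymphoid factor Ikaros, ranked 15, 10 and 25 at 24 h and 15, 10 and 17 at 0 h. Lyn, a Src-family kinase of the B cell receptor, ranked 22, 17 and 19 at 24 h and 28, 18 and 26 at 0 h. The cluster that holds Gimap1, Gimap4, Gimap5, Gimap6, Gimap7 and Gimap9, GTPases of lymphocyte survival, lies under a single peak at ranks 11, 13 and 18 at 24 h and 18, 11 and 14 at 0 h. These genes were picked for their ranks, so the values are a description. The ranks of Bach2, a repressor of plasma cell fate, varied more, at 2, 4 and 4 at 24 h and 30, 12 and 4 at 0 h.

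In a single library some domains stood far from the rest: Bank1, an adaptor of B cell signalling, ranked 7, 58 and 6 at 24 h and 7, 5 and 6 at 0 h, and Mef2c, a B cell transcription factor, 16, 65 and 13 at 24 h and 8, 7 and 8 at 0 h. In both, 24 h replicate 2 lay apart, as it did at Tlr9.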
